A study of Mus musculus with 9 samples.

Results

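The Cyp4a fatty acid omega-hydroxylases described here are the mouse genes Cyp4a10, Cyp4a14, Cyp4a12a and Cyp4a12b, taken by gene symbol as a named list and not by their values. They make up 4 of the 21950 mRNA genes and 5 of the 50660 mRNA transcripts measured by RNA-seq in the renal cortex of 9 male mice. The 3 control mice were db/m littermates with 1 mutant (db) allele of the leptin receptor gene Lepr, and they were given vehicle. The 3 dbdb mice were db/db, with both Lepr alleles mutated, and were given vehicle. The 3 dbR mice were db/db and received rosiglitazone, a drug that activates the nuclear receptor PPARγ, at 20 mg/kg per day. All mice were on the C57BL/KsJ background and were studied at 15 weeks of age. The db/db mice were gavaged for 8 weeks from 7 weeks of age. The db allele is present in every group, so the controls are heterozygous and not wild type, and no db/m mouse received the drug. Values are FPKM, the fragments of a transcript scaled to its length and to the mapped fragments of the library, summed over the transcripts of a gene, so levels of different genes can be compared per length.

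Enzymes of the CYP4A family are cytochromes P450 of the endoplasmic reticulum that add a hydroxyl group to the terminal (omega) carbon of fatty acids. Alcohol and aldehyde dehydrogenases then turn the product into a dicarboxylic acid, which is shortened in peroxisomes. Cyp4a10 and Cyp4a14 are classical targets of the fatty acid receptor PPARα, which fasting and fibrates activate. Cyp4a12a is the main mouse enzyme that converts arachidonic acid to 20-hydroxyeicosatetraenoic acid (20-HETE), a lipid that acts on renal vessels and on tubular salt transport, and it is known for being higher in males and for depending on androgen. Cyp4a12b is a near copy of Cyp4a12a. In the kidney these enzymes are found mainly in the proximal tubule.

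How far short reads can separate the members depends on their sequences, so stretches that carry this point are shown first, read from GENCODE transcripts of the mouse genome GRCm38. The stretch of 60 coding bases around the codon of the cysteine that holds the haem iron is given for each member, 5′ to 3′ in the direction of transcription, with the cysteine codon in capitals. On chromosome 4 it spans an intron in every member. It runs from 115529487 to 115532558 in Cyp4a10, from 115487284 to 115489820 on the minus strand in Cyp4a14, from 115328971 to 115331861 in Cyp4a12a and from 115435225 to 115438084 in Cyp4a12b.
Cyp4a10: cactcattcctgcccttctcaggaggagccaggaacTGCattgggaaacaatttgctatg
Cyp4a14: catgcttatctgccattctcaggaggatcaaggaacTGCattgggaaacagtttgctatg
Cyp4a12a: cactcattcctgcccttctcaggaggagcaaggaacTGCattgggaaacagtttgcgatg
Cyp4a12b: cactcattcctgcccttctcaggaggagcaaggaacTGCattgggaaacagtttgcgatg
Even in this conserved stretch Cyp4a14 differed from Cyp4a10 at 9 bases and from Cyp4a12a at 8, whereas Cyp4a12a and Cyp4a12b differed at 0 of 60.

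Over the whole coding sequence Cyp4a10 and Cyp4a14 were 76.8% identical, Cyp4a10 and Cyp4a12a 80.3% and Cyp4a14 and Cyp4a12a 75.8%. Cyp4a12a and Cyp4a12b were 98.5% identical, with 23 differing bases in 1527. The stretch of 90 coding bases (coding bases 661 to 750, within 1 exon) that holds 7 of these differences is shown for both genes, chr4:115326659-115326748 for Cyp4a12a and chr4:115432912-115433001 for Cyp4a12b, both on the plus strand, with the differing bases in capitals.
Cyp4a12a: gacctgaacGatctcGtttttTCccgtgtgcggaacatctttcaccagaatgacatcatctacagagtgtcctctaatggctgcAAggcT
Cyp4a12b: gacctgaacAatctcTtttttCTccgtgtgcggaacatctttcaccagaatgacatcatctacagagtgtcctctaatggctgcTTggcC
Elsewhere the pair ran without a difference for up to 401 bases of mRNA. Of the 150-base windows of the Cyp4a12b transcript, 582 of 2246 (25.9%) were found letter for letter in Cyp4a12a. For Cyp4a14 0 of 2347 windows were found in another Cyp4 gene, and for Cyp4a10 85 of 1960 (4.34%), in its neighbours Cyp4a31 and Cyp4a32. The split of reads between Cyp4a12a and Cyp4a12b is therefore uncertain, and their sum is given beside each of them.

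The libraries held an estimated 26.6 M to 32.7 M fragments, as judged from the steps between low FPKM values. Each member value rested on an estimated 303 fragments or more, which alone gives a counting error of at most 5.74%. The FPKM of the Lepr transcript ENSMUST00000106921 was 0.923 to 1.08 in controls, 0.232 to 0.36 in dbdb mice and 0.194 to 0.464 in dbR mice. Control replicate 3 stood apart from the other libraries in Gm26917, an lncRNA with an FPKM of 5.27 there and at least 1083 elsewhere. The proximal tubule was well represented: its 10 markers were measured in every library, with a summed FPKM of 3535 to 3776 in controls, 3139 to 3880 in dbdb mice and 3520 to 3639 in dbR mice. In dbdb vs. control 2 of these markers were higher (Slc5a2 and Slc5a12), 2 were lower (Slc22a6 and Slc7a13) and 6 were not called. Markers of later segments were higher in dbdb mice: 3 of 3 of the distal convoluted tubule, with a summed FPKM of 156 to 176 in control and 287 to 314 in dbdb libraries, and 3 of 4 of the collecting duct, with sums of 80.3 to 99.99 and 122 to 211. For podocytes 2 of 4 and for the thick ascending limb 1 of 3 were higher, and none was lower. Over all genes tested, 13.1% were called higher and 13.4% lower, or 24.0% and 6.67% with mitochondrial genes left out. The part of these segments in the dbdb vs. control changes was not tested. In such whole-tissue RNA, fewer cells of a type and less RNA per cell cannot be told apart.

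The first comparison, dbdb vs. control, asks what the diabetic state changes in the renal cortex. The make-up of the Cyp4a mRNA pool was different in dbdb mice: Cyp4a14, the lowest member in controls, was 28.1-fold higher in mean FPKM, Cyp4a10 was 2.13-fold higher, and Cyp4a12a, the leading member in controls, was 4.83-fold lower. Cyp4a12b was not called. In all, 3 of the 4 members were called at an adjusted p under 0.05 from limma, against 26.4% of the 14537 genes tested. The same 3 members were those whose groups did not overlap, against 42.4% of all genes.

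**Figure D1:**
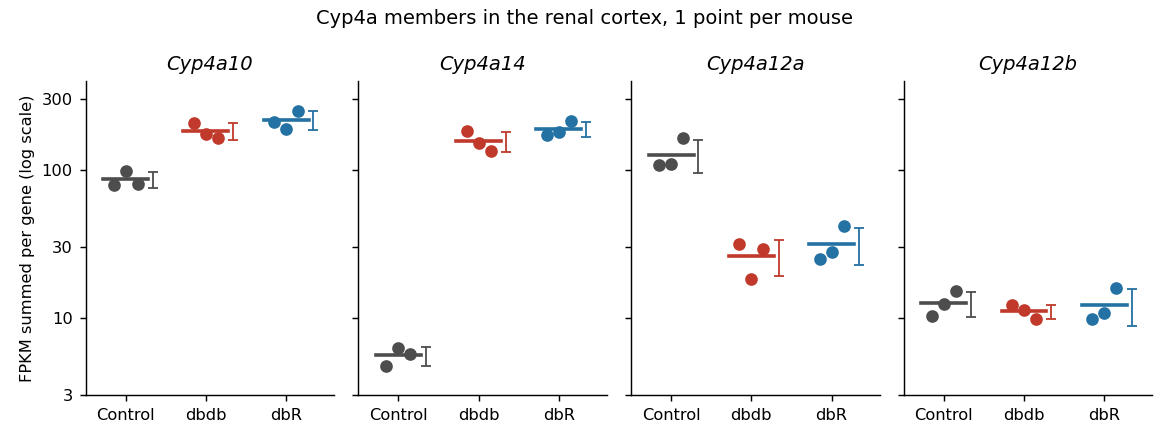
FPKM summed per gene (y axis, log scale) of the 4 Cyp4a members in the control, dbdb and dbR groups. Each point is 1 mouse, horizontal lines are group means and the bars beside them are SD (n = 3). The points of dbdb and dbR mice lie above those of controls for Cyp4a10 and Cyp4a14 and below them for Cyp4a12a, while the groups overlap for Cyp4a12b.

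Cyp4a14 (ENSMUSG00000028715, chr4:115486200-115496142, minus strand), a PPARα target that acts mainly on medium-chain fatty acids such as lauric acid, had an FPKM of 4.67, 6.27 and 5.70 in the control mice. In the dbdb mice its FPKM was 182.7, 151.1 and 134.4. The lowest dbdb library was thus far above the highest control library. The means were 5.55 ± 0.810 and 156 ± 24.6 (SD, n = 3), a log2 fold change of 4.79 (standard error 0.14, 95% CI 4.48 to 5.09, limma adjusted p = 1.33e-07). This was the smallest p-value of all genes tested and the 2nd largest rise.

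Cyp4a10 (ENSMUSG00000066072, chr4:115518264-115533649, plus strand), the other PPARα target, was already well expressed in controls, with an FPKM of 79.2, 98.9 and 80.6. In the dbdb mice its FPKM was 209.6, 175.9 and 165.3. No dbdb library overlapped a control library. The means were 86.3 ± 11.001 and 183.6 ± 23.1 (SD, n = 3), a log2 fold change of 1.09 (standard error 0.13, 95% CI 0.80 to 1.37, limma adjusted p = 0.000294). Of its transcripts, ENSMUST00000058785 (2109 bases, 13 exons) carried nearly all of the signal, with means of 85.1, 181 and 215 in the control, dbdb and dbR groups. ENSMUST00000094886 stayed at means of 1.13 ± 0.882, 2.23 ± 0.248 and 2.15 ± 1.12 FPKM (SD, n = 3), and among transcripts it was not called (log2 fold change 1.30, standard error 0.65, limma adjusted p = 0.271 in dbdb vs. control), where 9.23% of all transcripts were. The other members had 1 transcript each in the files.

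Cyp4a12a (ENSMUSG00000066071, chr4:115299046-115332815, plus strand), the 20-HETE-forming enzyme, had an FPKM of 107.8, 109.6 and 163.7 in the control mice. In the dbdb mice its FPKM was 31.7, 18.1 and 29.1. The highest dbdb library lay far below the lowest control library, and control replicate 3 was the highest of all. The means were 127 ± 31.8 and 26.3 ± 7.18 (SD, n = 3), a log2 fold change of -2.28 (standard error 0.25, 95% CI -2.84 to -1.72, limma adjusted p = 0.000204). Without control replicate 3 the log2 fold change was -2.08, and those of Cyp4a14 and Cyp4a10 were 4.81 and 1.04, all still called.

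Cyp4a12b (ENSMUSG00000078597, chr4:115411624-115439034, plus strand) was low, with an FPKM of 10.3, 12.3 and 15.1 in control mice and of 12.1, 11.3 and 9.77 in dbdb mice. The groups overlapped, with a log2 fold change of -0.17 (standard error 0.19, 95% CI -0.59 to 0.24, limma adjusted p = 0.535). When the near-identical pair was summed, the FPKM was 139.6 ± 34.1 in controls and 37.4 ± 7.28 with dbdb (SD, n = 3), giving a log2 fold change of -1.89 (standard error 0.22, limma adjusted p = 0.000272). The fall of the pair thus did not depend on how its reads were divided, whereas the values of Cyp4a12b alone did rest on that division. The ratio of Cyp4a12a to Cyp4a12b was 8.91 to 10.8 in control and 1.61 to 2.98 in dbdb libraries.

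Added together, the 4 members had an FPKM of 231 ± 31.9 in controls and 377 ± 51.9 (SD, n = 3) in dbdb mice, with ranges of 201.9 to 265.2 and 338.6 to 436.0 that did not overlap. An exact two-sided permutation test of 3 against 3 libraries cannot go below 0.10, and it gave p = 0.1. The share of each member in this sum differed without overlap between the groups (exact permutation p = 0.1 for each). Cyp4a12a held a mean of 54.5% of the sum in controls and 6.98% in dbdb mice, and Cyp4a14 2.41% and 41.3%. Cyp4a10 held 37.7% and 48.7%. Per length, the order of mean levels in controls was Cyp4a12a, Cyp4a10, Cyp4a12b and Cyp4a14, and no neighbours in this order overlapped. In dbdb mice the order was Cyp4a10, Cyp4a14, Cyp4a12a and Cyp4a12b, where the first pair overlapped between libraries, although Cyp4a14 was at 0.813 to 0.872 of Cyp4a10 within each library. In controls that ratio was 0.0590 to 0.0707.

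**Figure D2:**
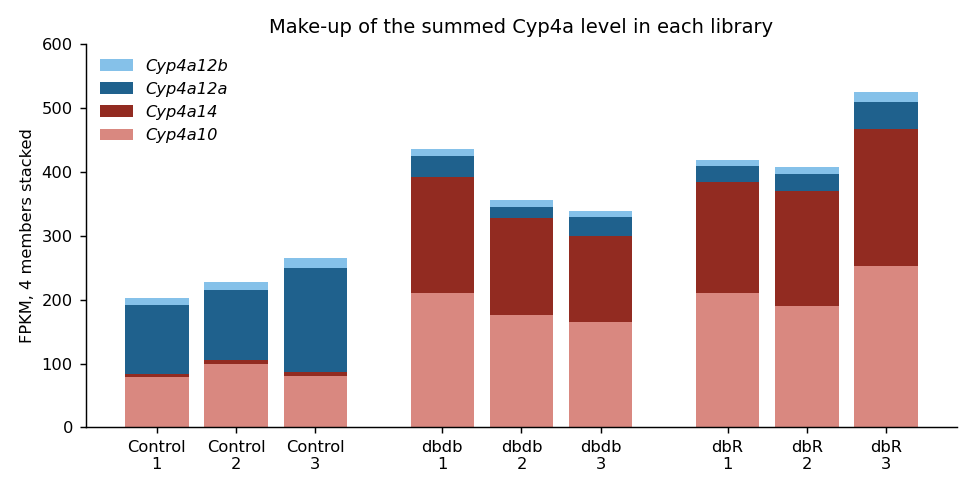
Stacked FPKM (y axis) of the 4 members in each of the 9 libraries (x axis, group and replicate). The summed level is 201.9 to 265.2 in controls, mostly Cyp4a12a and Cyp4a10, and 338.6 to 524.9 in the dbdb and dbR libraries, mostly Cyp4a10 and Cyp4a14.

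The second comparison, dbR vs. dbdb, asks what rosiglitazone changes in db/db mice. None of the 4 members was called by limma, at an adjusted p under 0.05 or at an unadjusted p under 0.05, against 0.743% and 17.5% of all genes. In dbR mice the FPKM of Cyp4a14 was 172.6, 179.4 and 215.1 and that of Cyp4a10 was 210.7, 189.9 and 252.2. Both genes overlapped with the dbdb mice, and dbR replicate 3 was the highest library for each. The log2 fold change was 0.28 for Cyp4a14 (95% CI -0.02 to 0.59, limma adjusted p = 0.320) and 0.24 for Cyp4a10 (95% CI -0.04 to 0.53, limma adjusted p = 0.363). Both intervals include 0 and reach above 0.5 on the log2 scale, so neither a modest rise nor the absence of one was shown. In this comparison 2 of 4 endothelial markers were called higher, and the part of that cell type in the values of the members was not tested.

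Cyp4a12a had an FPKM of 25.1, 27.9 and 41.6 in the dbR mice, overlapping the dbdb mice. Its log2 fold change was 0.27 (95% CI -0.29 to 0.82, limma adjusted p = 0.625), and it was 0.019 without dbdb replicate 2 and 0.049 without dbR replicate 3. Cyp4a12b had an FPKM of 9.76, 10.8 and 16.0 in the dbR mice and a log2 fold change of 0.11 (95% CI -0.31 to 0.53, limma adjusted p = 0.803). For the summed pair the log2 fold change was 0.21 (limma adjusted p = 0.665). The dbR mice kept the make-up of the dbdb mice, with mean shares of 48.3% for Cyp4a10, 42.1% for Cyp4a14, 6.92% for Cyp4a12a and 2.68% for Cyp4a12b. The sum of 450.4 ± 64.7 FPKM (SD, n = 3) overlapped that of dbdb mice (exact permutation p = 0.3).

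Set against controls, the dbR mice, which share these control libraries with the comparison above, differed in the same 3 members, where 24.1% of all genes were called. The log2 fold change was 5.07 for Cyp4a14 (limma adjusted p = 7.56e-08), 1.33 for Cyp4a10 (limma adjusted p = 0.000108) and -2.01 for Cyp4a12a (limma adjusted p = 0.000456). For Cyp4a12b it was -0.06 (95% CI -0.48 to 0.36, limma adjusted p = 0.850), and for the summed pair -1.68 (limma adjusted p = 0.000595). No dbR library reached the control range of Cyp4a14, Cyp4a10 or Cyp4a12a, a separation found in 41.9% of all genes.

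**Figure D3:**
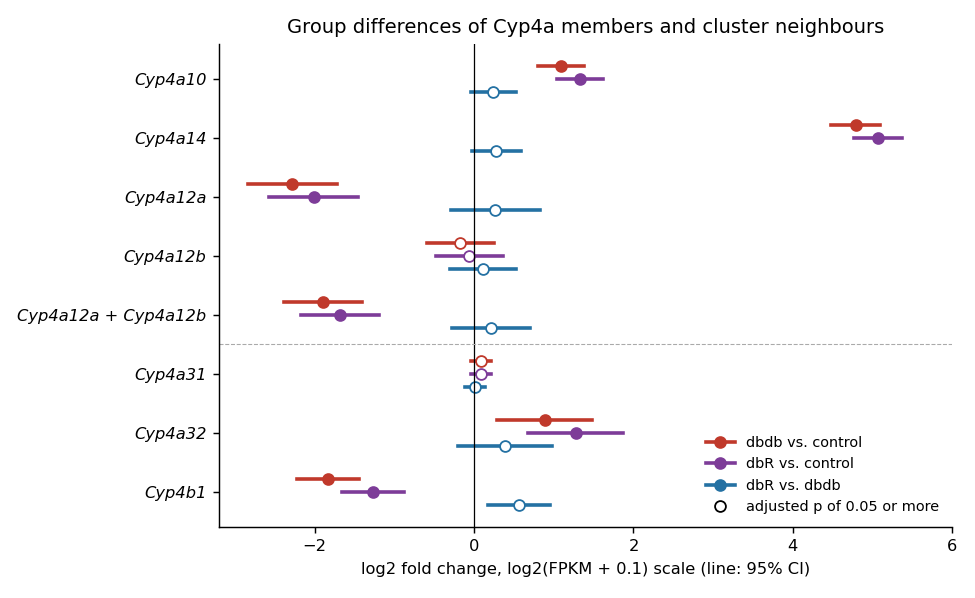
log2 fold change on the log2(FPKM + 0.1) scale (x axis) of the 4 members, of the summed Cyp4a12 pair and of 3 neighbouring genes in the 3 comparisons. Points are estimates, lines 95% CI, and open points have an adjusted p of 0.05 or more. The red and purple points, which compare with control, lie far from 0 for Cyp4a14, Cyp4a10 and Cyp4a12a, and the blue points of dbR vs. dbdb are open for each gene shown.

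The members lie in 1 gene cluster on chromosome 4. Cyp4a14 and Cyp4a10, which rose in dbdb mice, are direct neighbours on opposite strands. Cyp4a31, next to Cyp4a10 and 96.6% identical to it in coding sequence, stayed close to its control level, at 164 ± 5.03 FPKM in controls, 173 ± 4.39 in dbdb mice and 174 ± 7.83 in dbR mice (SD, n = 3). In dbdb vs. control the log2 fold change was 0.08 (95% CI -0.04 to 0.21, limma adjusted p = 0.320), although the dbdb libraries were all above the control libraries, and with mitochondrial genes left out it was called higher (0.24, limma adjusted p = 0.0295). A large part of the Cyp4a31 sum came from a transcript of 533 bases, ENSMUST00000141033, whose FPKM of 56.3 to 80.6 has a high weight for its length. Cyp4a32, 97.2% identical to Cyp4a10, was barely detected, at means of 0.0544, 0.186 and 0.273 FPKM in the control, dbdb and dbR groups, and its call as higher in dbdb vs. control (log2 fold change 0.89, limma adjusted p = 0.0340) was lost under some alternatives.

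Cyp4b1, at the edge of the cluster, hydroxylates medium-chain fatty acids and foreign compounds and is the most abundant P450 gene of this cluster. Its mean FPKM was 2052 ± 345 in controls, 578 ± 120 in dbdb mice and 848 ± 113 in dbR mice (SD, n = 3). Like Cyp4a12a, it was lower in dbdb mice (log2 fold change -1.84, limma adjusted p = 9.78e-05). It did not pass in dbR vs. dbdb (log2 fold change 0.57, limma adjusted p = 0.144). Cyp4a29 and Cyp4a30b were listed at 0 in every library, and Cyp4x1 was below the filter on low values. The only lncRNA of the files within 100 kb, LNC_000313 (chr4:115657210-115662907), had an FPKM of 3.04 ± 1.37, 1.99 ± 0.538 and 1.85 ± 0.551 (SD, n = 3) in the control, dbdb and dbR groups and was not called (limma adjusted p = 0.429 in dbdb vs. control). Lepr is on chromosome 4 too, 13.5 megabases before Cyp4a12a. Any sequence difference linked to its alleles and the loss of the signalling leptin receptor cannot be told apart in dbdb vs. control.

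**Figure D4:**
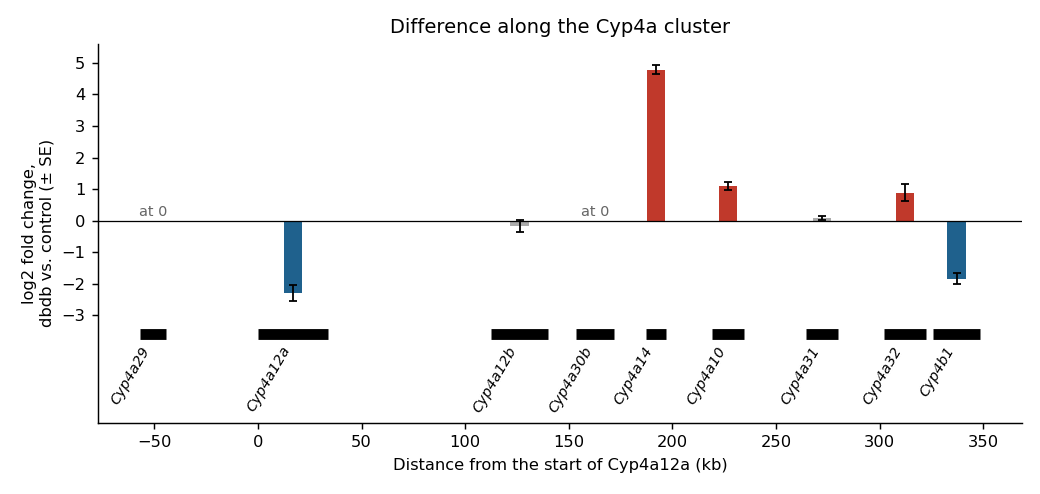
Genes of the Cyp4a cluster as black boxes at their distance from the start of Cyp4a12a (x axis, kb), with the log2 fold change of dbdb vs. control above or below (y axis, bars, SE as error bars). Red bars were called higher, blue bars lower and grey bars were not called. Cyp4a14, Cyp4a10 and the barely detected Cyp4a32 are red, Cyp4a12a and Cyp4b1 are blue, Cyp4a12b and Cyp4a31 are grey, and Cyp4a29 and Cyp4a30b were listed at 0.

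Outside the cluster, 3 of the 6 tested Cyp4 genes were higher in dbdb vs. control and 0 were lower. They were Cyp4f16 (log2 fold change 0.61, limma adjusted p = 0.00291), Cyp4v3 (0.53, limma adjusted p = 0.0268) and Cyp4f17 (0.44, limma adjusted p = 0.0448), all with mean FPKM below 4. Only Cyp4f16 was called under each alternative run: the count was 1 with no filter on low values, 1 without control replicate 2 or dbdb replicate 1, and 2 without any other single library. Cyp4v3 was not called without control replicate 2 or 3 or dbdb replicate 1 or 3 (0.45 to 0.51, limma adjusted p 0.0739 to 0.0862), and Cyp4f17 was not called with quantile normalization (0.33, limma adjusted p = 0.148) or without most single libraries (limma adjusted p 0.0523 to 0.133). Of the 4 genes listed as electron donors of microsomal P450 enzymes, 0 were higher and 3 were lower. Of these, Cyb5b is the outer mitochondrial membrane form of cytochrome b5 and so not itself a microsomal donor. With quantile normalization or with mitochondrial genes left out, 2 were lower and Cyb5b was not called. Cytochrome b5 (Cyb5a) fell from a mean FPKM of 1035 to 572 (log2 fold change -0.86, limma adjusted p = 0.000413) and its reductase Cyb5r3 from 79.9 to 50.9 (log2 fold change -0.65, limma adjusted p = 0.000339). Por, the main P450 reductase, had means of 155 and 147 FPKM and was not called (limma adjusted p = 0.557). For comparison, 13.1% of all genes were called higher and 13.4% lower, so 49.5% of the calls were higher. This split rested on the scaling: with mitochondrial genes left out, 24.0% of all genes were called higher and 6.67% lower, and 78.3% of the calls were higher. Counts of the lists by direction are read against both splits.

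Of 6 tested genes that oxidise fatty alcohols and aldehydes, the steps after omega-hydroxylation, 2 were higher and 2 were lower in dbdb vs. control. The alcohol dehydrogenase Adh1 fell from a mean FPKM of 280.3 to 83.2 (log2 fold change -1.74, limma adjusted p = 1.03e-05) and the fatty aldehyde dehydrogenase Aldh3a2 from 110.1 to 59.1 (log2 fold change -0.89, limma adjusted p = 2.35e-05). Aldh1a1, which oxidises retinal and other aldehydes, rose from 30.5 to 61.1 (limma adjusted p = 0.000211). Of 15 tested genes for activation of the acids and their peroxisomal oxidation, 4 were higher and 5 lower, with a median log2 fold change of -0.08 beside -0.003 for all genes. With mitochondrial genes left out the balance turned, to 6 higher and 3 lower. The lower genes included Crot, which makes medium-chain acylcarnitines for export from peroxisomes (log2 fold change -1.25, limma adjusted p = 7.55e-06), Ehhadh, a peroxisomal enzyme of dicarboxylic acid oxidation (-0.96, limma adjusted p = 0.000168), and Slc27a2, an acyl-CoA synthetase (-0.66, limma adjusted p = 0.00195). Acot3, a peroxisomal acyl-CoA thioesterase, was among the higher genes (0.89, limma adjusted p = 0.00128).

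The receptor that controls Cyp4a10 and Cyp4a14 was itself higher in dbdb mice. Ppara had a mean FPKM of 37.3 ± 2.48 in controls, 64.2 ± 6.59 in dbdb mice and 51.6 ± 1.22 in dbR mice (SD, n = 3), with a log2 fold change of 0.78 in dbdb vs. control (limma adjusted p = 0.000151). Its partner Rxra also rose (0.35, limma adjusted p = 0.00923). Pparg, the target of rosiglitazone, was low, at means of 1.21 ± 0.917, 0.392 ± 0.116 and 0.819 ± 0.333 FPKM (SD, n = 3), and was not called in dbdb vs. control (limma adjusted p = 0.0635). Over the list of 11 receptors and cofactors, 4 were higher and 1 was lower, the corepressor Ncor1 (-0.28, limma adjusted p = 0.0119), which was not called with quantile normalization or with mitochondrial genes left out.

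PPARα targets outside Cyp4a were divided. Of 25 tested, 10 were higher and 4 lower in dbdb vs. control, with a median log2 fold change of 0.18. With quantile normalization 12 were higher and 4 lower. With mitochondrial genes left out 13 were higher and 3 lower, where 78.3% of the calls of all genes were higher. Pdk4, which restrains pyruvate oxidation, rose (1.60, limma adjusted p = 7.33e-05), as did Angptl4, an inhibitor of lipoprotein lipase (1.92, limma adjusted p = 0.00326). Cd36, a fatty acid transporter, fell (-2.76, limma adjusted p = 1.84e-05), as did Ehhadh and Acadm, a mitochondrial enzyme of medium-chain fatty acid oxidation. Cd36 is also expressed in adipocytes, endothelium and macrophages. The summed FPKM of 6 adipocyte markers was 29.0 to 35.9 in control and 10.8 to 16.8 in dbdb libraries, but nearly all of it was Car3, with means of 31.4 and 14.0. Adipoq, Plin1, Lep and Cidec had means of 0.267 FPKM or less in controls, and Adipoq and Plin1 were listed at 0 in each dbdb library. Of the 4 adipocyte markers that passed the filter on low values, 2 (Cfd and Car3) were lower in dbdb mice. For endothelium 4 of 4 markers were lower, with a summed FPKM of 90.01 to 98.69 in control and 63.27 to 69.11 in dbdb libraries. For macrophages 3 of 4 were lower (Csf1r, Adgre1 and Cd68), with sums of 27.5 to 32.1 and 13.0 to 21.2. Over all genes tested, 13.4% were called lower in dbdb vs. control. In dbR libraries the endothelial sum was 90.33 to 107.6, and Kdr and Emcn were called higher in dbR vs. dbdb (limma adjusted p = 0.0309 and 0.0205, and up to 0.152 with 1 library left out), while the mean FPKM of Cd36 was 37.7 in dbR and 36.7 in dbdb mice (limma adjusted p = 0.951). The part of these cell types in the dbdb vs. control result was not tested.

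In dbR vs. dbdb only Pdk4 was called among these 25 targets (log2 fold change -0.98, limma adjusted p = 0.0254). The call did not hold with no filter on low values (limma adjusted p = 0.0896), with no variance trend, or without dbdb replicate 1 or any 1 dbR library (limma adjusted p 0.0529 to 0.109), where the log2 fold change was -1.02 to -0.94. Mlycd, malonyl-CoA decarboxylase, was called beside it with mitochondrial genes left out (-0.34, limma adjusted p = 0.0444). The mean FPKM of Pdk4 was 4.28 in dbdb mice and 2.09 in dbR mice, where it was still above the 1.34 of controls (limma adjusted p = 0.0125). At an unadjusted p under 0.05, 9 of the 25 passed, beside 17.5% of all genes. Angptl4 had a log2 fold change of -1.38 (limma adjusted p = 0.0880) and Ppara one of -0.31 (limma adjusted p = 0.0955), beside the positive estimates of Cyp4a14 and Cyp4a10 given above. Since liver strongly expresses Cyp4a10 and Cyp4a14, 5 hepatocyte markers were measured too, and none was at 0 in all libraries. Their summed FPKM was 52.3 to 72.3 in controls, 53.2 to 68.9 in dbdb and 79.8 to 85.3 in dbR libraries, with Alb at means of 4.96, 9.43 and 15.3 and 3 of 5 called higher in dbdb mice. Over all genes tested, 13.1% were called higher in dbdb vs. control. The control and dbdb ranges of the hepatocyte sum overlapped, and the part of these markers in the result was not tested.

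**Figure D5:**
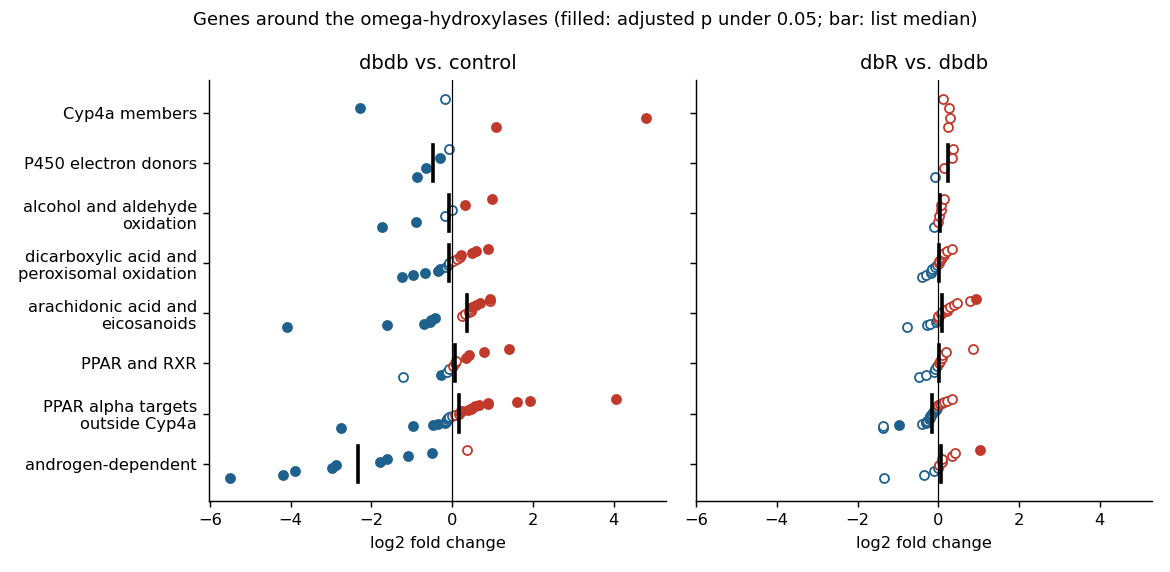
log2 fold change (x axis) of the members and of the tested genes of 7 lists (y axis) in dbdb vs. control (left) and dbR vs. dbdb (right). Each point is 1 gene, filled at an adjusted p under 0.05, and black bars are list medians. On the left 10 PPARα targets are filled above 0 and 4 below it, and 9 of 10 androgen-dependent genes are filled below 0. On the right 3 points are filled.

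Genes known to depend on androgen in the mouse kidney, as Cyp4a12a does, were lower as a group. In dbdb vs. control 9 of 10 were lower and 0 higher, with a median log2 fold change of -2.33, beside the -2.28 of Cyp4a12a. Kap, the kidney androgen-regulated protein, had a mean FPKM of 38868 in control and 5267 in dbdb mice (log2 fold change -2.88, limma adjusted p = 1.36e-05, but 0.602 with no filter on low values). The oxysterol hydroxylase Cyp7b1 fell from 61.0 to 3.25 (log2 fold change -4.19, limma adjusted p = 7.55e-06) and the organic anion transporter Slco1a1 from 264 to 7.18 (log2 fold change -5.49, limma adjusted p = 0.000133). In dbR vs. dbdb only Slc7a13, an amino acid transporter of the late proximal tubule, was called (log2 fold change 1.04, limma adjusted p = 0.0282). The call was lost with no filter on low values (limma adjusted p = 0.1203), with no variance trend, and without dbdb replicate 1 or 2 or dbR replicate 2 or 3 (log2 fold change 0.86 to 1.08, limma adjusted p 0.0602 to 0.1198). At an unadjusted p under 0.05, 2 of the 10 passed, a share near the 17.5% of all genes.

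Arachidonic acid has other routes than omega-hydroxylation, and these genes were divided as well. Of 16 tested, 4 were higher and 6 lower in dbdb vs. control. The balance was not stable, at 7 higher and 5 lower with mitochondrial genes left out and 6 and 6 with array weights. Alox15, a lipoxygenase also expressed in macrophages, fell from a mean FPKM of 25.7 to 1.42 (log2 fold change -4.08, limma adjusted p = 6.37e-06). The macrophage markers given above for Cd36, of which 3 of 4 were lower in dbdb mice, moved with it, and their part in this result was not tested. Among epoxygenases Cyp2j5 fell from 908 to 628 (-0.54, limma adjusted p = 0.00335) and Cyp2j6 rose from 10.7 to 15.2 (0.50, limma adjusted p = 0.000793). The soluble epoxide hydrolase Ephx2 fell (-0.70, limma adjusted p = 0.00223) and the microsomal one, Ephx1, rose (0.94, limma adjusted p = 0.000524). Cyp2c44, an epoxygenase, was the only gene of this list called in dbR vs. dbdb, where its mean FPKM was 38.2 ± 8.61 in dbdb and 71.8 ± 6.18 (SD, n = 3) in dbR mice (log2 fold change 0.93, limma adjusted p = 0.0282). The call was lost with no filter on low values (limma adjusted p = 0.119), with no variance trend, with only the 6 libraries of the comparison, and without dbdb replicate 1 or dbR replicate 2 or 3 (log2 fold change 0.86 to 0.92, limma adjusted p 0.0670 to 0.1495). At an unadjusted p under 0.05, 7 of the 16 passed, beside 17.5% of all genes.

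In dbR vs. dbdb none of the tested cluster neighbours, other Cyp4 genes, electron donors, alcohol and aldehyde genes, acid activation genes or receptors was called by limma. At an unadjusted p under 0.05, which 17.5% of all genes met, Cyp4b1 passed among the neighbours, Cyb5a and Cyb5r3 among the electron donors, 4 of 15 among the acid activation genes, and Ppara and Rxrg among the receptors. Of the other Cyp4 genes and of the alcohol and aldehyde genes, 0 passed.

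The genes whose pattern over the 9 libraries was most like that of each member were ranked by Pearson's r of log2(FPKM + 0.1) among 11614 other genes. The points share the group structure, so r is a description only. Among the 5 nearest to Cyp4a14 were the bilirubin glucuronosyltransferase Ugt1a1 (r = 0.996), Pdk1 (0.990), Cyp2d22 (0.987) and Hebp1 (0.987). Ugt1a1 had a mean FPKM of 1.85 in controls, 20.6 in dbdb mice and 22.8 in dbR mice. Nearest to Cyp4a10 were Cxxc5 (0.985), Erbb2 (0.978), Ugt1a1 (0.975), Cyp2d26 (0.974) and Akr1c13 (0.974). Nearest to Cyp4a12a were Herc4 (0.986), Papola (0.985), Htatip2 (0.982), Rer1 (0.981) and the carboxylesterase Ces2b (0.981), which had means of 4.58, 0.307 and 0.416 FPKM. Cyp4a12b, which varied little, had lower values, led by Thnsl1 (0.920), Map1lc3b (0.902), Etfb (0.896), Apopt1 (0.895) and 2310036O22Rik (0.894).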

How the data were processed

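Ribosomal RNA was removed by the authors from renal cortex RNA of each mouse, strand-specific libraries were sequenced, and reads were aligned to GRCm38.p2 with TopHat2 (2.0.9) and assembled with Scripture and Cufflinks (2.1.1). The authors deposited Cufflinks FPKM per transcript, which are already scaled by length and mapped fragments, with no read counts, and reads shared by similar genes were divided by Cufflinks. Here FPKM were summed per gene, a mean FPKM of 0.1 or more was required (14537 genes), and log2(FPKM + 0.1) was fitted with limma (3.58.1, R 4.3.3) in 1 model of 3 groups with a variance trend. P-values are two-sided, Benjamini-Hochberg adjusted over all genes, and called under 0.05. Fold changes on this scale understate those of low genes. Transcripts were fitted likewise (31858, lncRNAs included). The fit was tested on simulated data. Groups came from the sample labels, 1 mouse per library. Positions and coding sequences came from GENCODE M21 (GRCm38).

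The members and gene lists were chosen with earlier results of these data known. Named genes are the members, all list genes, genes and lncRNAs within 100 kb of the cluster, and the 5 genes most like each member among genes averaging 1 FPKM or more. Results of some genes under this rule are not reported here. Alternatives covered the pseudocount, filter, scaling, mitochondrial genes, samples fitted, variance model, replicate block, the summed pair and leaving out each library. Figures were drawn with matplotlib 3.10.9 under python 3.11.15.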

Additional observations from a re-analysis of the deposited data

How the results depend on the processing

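The calls of Cyp4a14, Cyp4a10, Cyp4a12a and the summed pair against control, and the lack of a call of every member in dbR vs. dbdb, held under each alternative run. In dbdb vs. control the log2 fold change ranged from 4.58 to 4.94 for Cyp4a14, 1.08 to 1.25 for Cyp4a10 and -2.33 to -2.12 for Cyp4a12a itself over the settings, and from 4.67 to 4.89, 0.99 to 1.19 and -2.43 to -2.03 with 1 library left out. Cyp4a12b was called only where it was replaced by the summed pair (-1.89 in dbdb vs. control, -1.68 in dbR vs. control). Its uncalled dbR vs. control value changed sign with mitochondrial genes left out (0.034), with array weights (0.086), and without control replicate 3 (0.081), dbR replicate 1 (0.081) or dbR replicate 2 (0.0098); over all single libraries left out it ranged from -0.27 to 0.081. Without dbR replicate 3 the uncalled dbR vs. dbdb values were -0.10 for Cyp4a12b and -0.0053 for the summed pair; with 1 library left out they ranged from -0.10 to 0.25 and -0.0053 to 0.36, and those of Cyp4a12a, Cyp4a10 and Cyp4a14 from 0.019 to 0.42, 0.13 to 0.34 and 0.18 to 0.40. Leaving out mitochondrial genes, 26.9% to 32.8% of the mRNA FPKM, moved the median of all genes in dbdb vs. control by 0.15. It moved the share of calls that were higher from 49.5% to 78.3% in dbdb vs. control, from 75.9% to 48.6% in dbR vs. dbdb and from 51.1% to 70.5% in dbR vs. control, where 75th percentile scaling gave 62.3%.

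The count of genes called in dbR vs. dbdb, 108, was not stable. It was 17 with no filter, 166 at a mean FPKM of at least 1, 203 with 75th percentile scaling, 235 with quantile normalization, 36 with only the 6 libraries of the comparison, 18 with no variance trend, 280 with array weights and 66 with lncRNA genes in the same table, an alternative chosen after seeing the data. With 1 library left out it ranged from 2 (without dbR replicate 2) to 141, with 10, 70, 36 and 31 without dbR replicate 3, dbR replicate 1, dbdb replicate 1 and dbdb replicate 2. The cause was not tested.

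The replicate numbers did not pair the libraries: same-numbered deviations correlated between -0.175 and 0.0615, and 2 of 9 libraries were closest to one of their own number. A fit with the number as a block called 23 genes in dbR vs. dbdb and 0 of the glucocorticoid and circadian list, called Angptl4 and not Pdk4 among PPARα targets, and changed no call of a member.

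Calls of the cluster neighbours in dbdb vs. control were 1 with a pseudocount of 1, at a mean FPKM of at least 1 or with only 6 libraries, as Cyp4a32 was lost or not tested, and 1 to 2 with 1 library left out; in dbR vs. control they were 1 at a mean FPKM of at least 1. Other Cyp4 genes had 1 call with no filter against control in either group, 1 with quantile normalization in dbR vs. control, and 1 to 2 in each with 1 library left out. Electron donors had 1 call in dbR vs. dbdb with 75th percentile scaling, and in dbR vs. control 1 with mitochondrial genes left out and 1 to 2 with 1 library left out. In dbR vs. dbdb the single calls of the eicosanoid (Cyp2c44), PPARα (Pdk4), androgen (Slc7a13) and circadian (Per2) lists became 0 with no filter or no variance trend. With only 6 libraries the eicosanoid list had 0 and the circadian list 2, and with mitochondrial genes left out PPARα targets had 2 and receptors 1. With 1 library left out these lists had 0 to 1 calls, the circadian list 0 to 2 and the receptors 0 to 1. Leaving out dbdb replicate 1, dbR replicate 2 or dbR replicate 3 brought the eicosanoid, PPARα, androgen and circadian lists to 0.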

Other observations

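Genes that respond to glucocorticoids or follow the time of day were compared as well. Of 10 tested, 5 were higher and 3 lower in dbdb vs. control. Fkbp5, a glucocorticoid-induced chaperone of the glucocorticoid receptor, had a mean FPKM of 18.9 ± 5.11 in control, 66.9 ± 8.39 in dbdb and 42.6 ± 0.888 (SD, n = 3) in dbR mice (log2 fold change 1.85 in dbdb vs. control, limma adjusted p = 5.9e-05). The clock gene Per1 rose by 1.48 on the log2 scale (limma adjusted p = 0.000163) and Per2 by 1.20 (limma adjusted p = 1.22e-05), while Nr1d1, a clock repressor, fell by 1.25 on the log2 scale (limma adjusted p = 0.0013) and Nr3c1, the glucocorticoid receptor, by 0.39 (limma adjusted p = 0.00452). In dbR vs. dbdb only Per2 was called, lower in dbR mice (-0.49, limma adjusted p = 0.0282). The call did not hold with no filter on low values (limma adjusted p = 0.0810), with no variance trend, or without dbdb replicate 1 or 2 or any 1 dbR library (-0.53 to -0.47, limma adjusted p 0.0529 to 0.1495). Without control replicate 1, or with only the 6 libraries of the comparison, 2 of the list were called. At an unadjusted p under 0.05, 6 of the 10 passed, beside 17.5% of all genes. The hour at which the kidneys were taken is not given in the sources used here.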
